A study of Mus musculus with 12 samples.

Results

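The genes described here encode proteins of the mitochondrial ribosome. They were chosen by name: every gene whose symbol is Mrpl or Mrps followed by a number and at most 1 letter, with annotated exons, and named in all 3 layouts in which the files were deposited. The rule found 77 genes, 48 named for the large subunit (Mrpl) and 29 for the small subunit (Mrps), among the 20725 genes that could be joined over the layouts. The rule uses names and annotation and no measured value, although it was set with earlier results of these data known. The RNA came from CD69+ regulatory T cells (Treg), sorted as live CD45+ CD4+ cells with EGFP reporting Foxp3, at day 14 after ligation of the inferior vena cava, a flow-reduction model of deep vein thrombosis. All mice were DEREG, on C57BL/6 with the transgene Tg(Foxp3-DTR/EGFP), whose strain designation ends in 23.2Spar/Mmjax, a line in which Foxp3 regulatory sequence drives a diphtheria toxin receptor fused to EGFP, so the reporter and the ligation are shared by every group and no unligated mice entered. The groups were spleen, thrombus and vein wall, with 4 libraries each. The labels used here give neither age nor whether a library came from 1 mouse or several, and p-values therefore rest on the scatter of these samples, part of which may be technical.

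The mitochondrial ribosome translates the few mRNAs encoded by mitochondrial DNA, all of which specify subunits of the oxidative phosphorylation complexes. Its rRNAs come from mitochondrial DNA, while its proteins come from nuclear genes scattered over the chromosomes, are made in the cytosol and are imported. T cells that become activated expand mitochondrial mass and translation, and Treg are known for reliance on oxidative metabolism.

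The 12 libraries held 9719151 to 55386086 exon reads. Reads with several matches are included in these totals. The files came in 3 layouts with different gene models: layout 1 (spleen 1 and thrombus 1), layout 2 (spleen 2, thrombus 2 and vein wall 1) and layout 3 (the other 7 libraries). Spleen 3 and 4, and vein wall 3 and 4, differed from each other far less than any other pair of libraries of a tissue (mean chi-square per gene 3.96 and 2.56, against 97.0 to 356), so each pair was summed and counted as 1 sample, which left 3 spleen, 4 thrombus and 3 vein wall samples. The 6 Treg markers had reads in every sample and summed to 3949 to 4522 CPM in the spleen samples, 3976 to 5724 in those of thrombus and 4120.3 to 5313 in those of vein wall, where CPM is the usual depth-scaled unit, here on the normalized library size. Of the 6 T cell markers, 1 was called, Cd69, on which the cells were sorted. It was higher than in spleen in both thrombus and vein wall (edgeR adjusted p = 0.0248 and 0.00882). Markers of other cells were also read. The 7 macrophage and monocyte markers summed to 21.1 to 143, 45.1 to 1557 and 19.9 to 261 CPM in the same order, with the highest sum in thrombus 2, where Cd163 was at 0. The 7 dendritic cell markers summed to 67.6 to 363, 282 to 2306 and 379 to 2381 CPM, highest in vein wall 1 (Cd209a and Itgax at 0) and thrombus 2 (Cd209a and Xcr1 at 0), both of layout 2. The 6 B and plasma cell markers summed to 159 to 297, 201 to 949 and 362 to 1278 CPM, with the highest sums in the same pair of samples. No marker of these 3 lists was called in any comparison. Of the 8 pancreas markers, Try4 and Amy2a1 were called higher than spleen in both thrombus and vein wall (edgeR adjusted p = 8.54e-05 and 0.000987 in thrombus, 0.000376 and 0.00461 in vein wall), and the list summed to 20.9 to 112, 19.98 to 292 and 28.1 to 138 CPM, with Amy2a1 at 0 in thrombus 2 and vein wall 1. Of the 6 fibroblast markers, 0 were called and 4 had an unadjusted p under 0.05 in both comparisons with spleen, with sums of 0 to 0.455, 4.36 to 18.8 and 10.3 to 60.1 CPM. The 7 proliferation markers summed to 148 to 196 CPM in spleen and to more in every other sample, 286 to 668 in thrombus and 299 to 362 in vein wall, with Stmn1 called in both comparisons with spleen. The part of these cells and of proliferation in the values below was not tested. In such bulk samples, fewer cells of a type and less RNA per cell cannot be told apart.

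Every mitoribosomal protein gene was read in every sample, and all 77 passed the filter on low counts. The smallest count of any of them in any sample was 18 reads, for Mrps30 in thrombus 2. Summed over the 77 genes, the level was 6327, 9863 and 9441 CPM in spleen 1, 2 and 3-4. It was 5157, 11665, 9666 and 8454 CPM in thrombus 1 to 4. It was 9765, 11736 and 11468 CPM in vein wall 1, 2 and 3-4. The lowest sums were in the 2 samples of layout 1, spleen 1 and thrombus 1. The groups overlapped, since vein wall 1 lay below spleen 2 and thrombus 2 lay close to the highest vein wall sample. The means were 8544 ± 1931 CPM for spleen (SD, n = 3), 8735 ± 2728 CPM for thrombus (SD, n = 4) and 10989.8 ± 1069 CPM for vein wall (SD, n = 3). The range over the thrombus samples was wider than the distance between any group means.

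**Figure D1:**
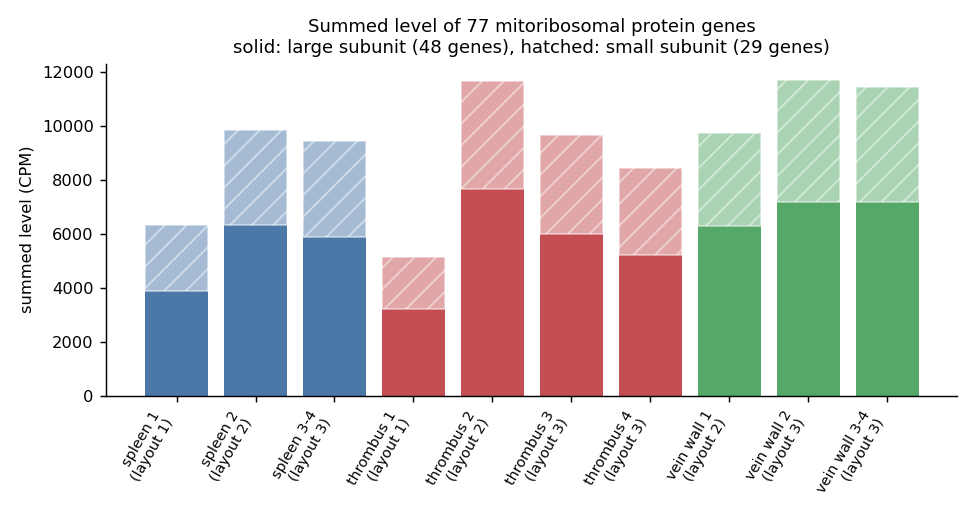
Bars show the summed level of the 77 genes in CPM for each sample, split into genes named for the large and the small subunit and coloured by tissue. The samples of layout 1 had the lowest sums, 6327 and 5157 CPM, and the tissues overlapped.

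The transcripts differed widely in level. Per kilobase of exon, the mean over the 10 samples ranged from 10.97 to 643 CPM per kb, with a median of 64.1. The highest levels per kilobase belonged to Mrps21, a small subunit protein with a bacterial counterpart, at 643 CPM per kb, and to Mrpl42, a large subunit protein specific to mitochondria, at 473 CPM per kb. Mrps18c and Mrpl52 followed at 320.3 and 318 CPM per kb. The lowest were Mrps2, a small subunit protein conserved from bacteria, at 10.97 CPM per kb, Mrpl19 at 12.4 and Mrps30 at 12.8. These lengths are those of all annotated exons of a gene, so a gene with rare long exons reads low on this scale.

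Mrps21 had 163, 280.5 and 422 CPM in spleen, 117, 346, 478 and 501 CPM in thrombus, and 281, 533 and 469 CPM in the vein wall, in the order of samples given above. Its lowest values were in the layout 1 samples and the groups overlapped. Against spleen, the log2 fold change of Mrps21 was 0.02 ± 0.22 for thrombus (± SE here and below) and 0.02 ± 0.25 for vein wall, neither called by edgeR (adjusted p = 0.999 and 0.991).

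Thrombus set against spleen addresses how the sorted cells of the clot differed from those of a lymphoid organ, both taken from ligated mice. None of the 77 genes was called in either direction by edgeR at an adjusted p under 0.05, where 0.456% of the 11618 genes tested were called. In simulated data the same fit called 6% of genes raised 2-fold in thrombus and 4% in vein wall against spleen. Those genes were drawn from all genes tested, whose median standard errors, given below, were larger than those of the 77. The share for the 77 genes was not simulated. The absence of a call therefore does not show that a gene was unchanged. At an unadjusted p under 0.05, 4 of the 77 were lower, where 3.31% of all genes were, and 0 higher, where 3.52% were (6.83% in either direction). DESeq2 called 1 of them lower, Mrps24, and edgeR without the filter on low counts called Mrps24 and Mrps30. The fitted log2 fold change was below 0 for 52 of the 77 genes and above 0 for 25 (49.2% of all genes), with a median of -0.10 against -0.01 over all genes tested. It ran from -1.97 for Mrps30 to 0.53 for Mrpl1. No gene of the set had groups that did not overlap, while 2.5% of all genes did so in each direction. With layout 1 left out, 7 of the 77 lay wholly above spleen (9.09%, against 8.48% of all genes) and 4 wholly below (5.19%, against 9.25%), and with layout 2 left out 0 lay above and 6 below (7.79%, against 9.86%). The median was -0.23 without thrombus 2, -0.01 without thrombus 1 and -0.02 without thrombus 4.

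In vein wall against spleen, 0 of the 77 genes was called by edgeR, against 0.413% of all genes. At an unadjusted p under 0.05 the count was 0 as well in both directions, against 3.99% of all genes higher and 3.83% lower (7.82% in all), and DESeq2 called 0 of the 77, with a smallest adjusted p of 0.153. The fitted log2 fold change was above 0 for 52 of the 77 genes, against 49% of all genes, with a median of 0.11 against -0.02 over all genes. In 16 of the 77 genes (20.8%) every vein wall sample lay above every spleen sample, where 6.75% of all genes tested did so. In 1 gene, Mrpl43, every vein wall sample lay below, against 6.52% of all genes. The 16 genes included Mrpl10 and Mrpl12 of the stalk, Mrpl23 and Mrpl24 of the tunnel exit, Mrpl40 and Mrpl46 of the central protuberance, and Mrps14, Mrps25, Mrps27 and Mrps33 of the small subunit. Vein wall had no sample of layout 1, in which most of the 77 genes read low. With layout 1 left out, an alternative added after seeing the data, only spleen 1 is removed from this comparison. The 16 genes above every spleen sample had to stay above the rest, so this setting cannot show whether the layout mattered for them. The count was again 16 (20.8%), against 9.9% of all genes, and 2 lay wholly below (2.6%), against 10.5%. With layout 2 left out, 2 samples of each tissue remain, and spleen 1 of layout 1 is still set against vein wall samples of layout 3. There 41 lay wholly above spleen (53.2%, against 19.7%) and 2 wholly below (2.6%, against 21.1%). Over the alternatives the median ran from 0.048, among the 15 genes with exon lengths within 10%, and 0.068, without vein wall 2, to 0.32, without vein wall 1. It was 0.30 without the layout term, and 0.30 with the 12 libraries kept separate and the experiment number as a replicate block in place of that term.

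Thrombus and vein wall are the neighbouring sites of the clot. Here too 0 of the 77 genes was called by edgeR, and so was 0 of all 11618 genes (0%). DESeq2 called 0 of the 77 and 29 of all genes. At an unadjusted p under 0.05, 2 of the 77 were lower in thrombus, Mrpl39 and Mrps36, where 1.64% of all genes were, and 0 higher, where 2.5% were (4.13% in all). The fitted log2 fold change was below 0 for 68 of the 77 genes and above 0 for 9 (50.5% of all genes), with a median of -0.23 against 0.01 over all genes. It was below 0 for 27 of the 29 Mrps genes and 41 of the 48 Mrpl genes. In 3 genes (3.9%), Mrpl10, Mrpl19 and Mrps27, every thrombus sample lay below every vein wall sample, against 1.49% of all genes, and in 0 every one lay above, against 2.34%. With layout 2 left out, which also removes the thrombus and vein wall samples richest in macrophage and dendritic cell markers, the median was -0.39, 35 of the 77 genes lay wholly below vein wall (45.5%, against 12.4% of all genes) and 0 wholly above (against 12%). This setting leaves 2 vein wall samples. The median was -0.38 without thrombus 2, -0.35 without vein wall 1 and -0.15 without thrombus 4.

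**Figure D2:**
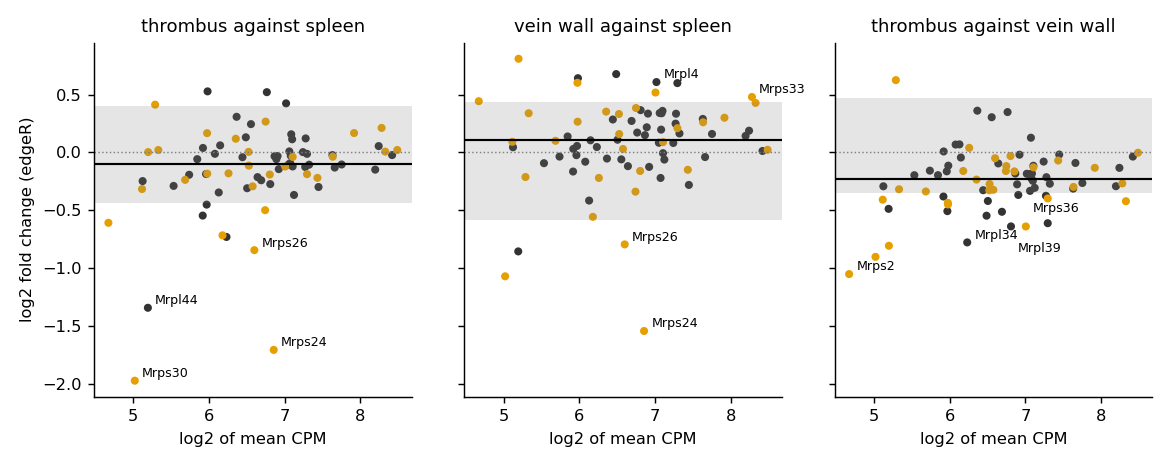
Points are the 77 genes (black, Mrpl; orange, Mrps), with the log2 of the mean CPM on the horizontal axis and the fitted log2 fold change on the vertical axis. The black line is their median, at -0.10, 0.11 and -0.23, the grey band spans the quartiles of all genes tested, and the 4 genes with the smallest p in each comparison are named.

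The genes lay closer to 0 than the table as a whole. Their log2 fold changes were beyond 1 in either direction for 3.90%, 2.60% and 1.30% of the 77 in thrombus against spleen, vein wall against spleen and thrombus against vein wall. Over all genes tested the shares were 22.7%, 27.1% and 20.9%. Their median standard errors were also smaller, 0.31, 0.35 and 0.32 against 0.59, 0.66 and 0.60, on the log2 scale. The part of read depth in this was not tested.

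Samples of 1 layout share gene models, and differences within a layout show how far the samples of a tissue went the same way. Thrombus 1 against spleen 1 had a median difference in log2(CPM + 0.5) of -0.29, with 13 of the 77 genes higher. Thrombus 2 against spleen 2 went the other way, at 0.24 with 55 higher. Thrombus 3 and thrombus 4 against spleen 3-4 gave -0.08 and -0.31, with 34 and 22 genes higher. The 4 thrombus samples therefore did not share a direction. The 3 vein wall samples did in their medians, at 0.06, 0.30 and 0.27, with 45, 58 and 53 genes higher than in the spleen sample of their layout. Several of these differences share a spleen sample.

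Between thrombus and vein wall, layout 3 gave 4 medians below 0, from -0.56 to -0.23. Layout 2 gave 0.19, with 53 of the 77 genes higher in thrombus 2. The median was below 0 in layout 3 and above 0 in layout 2. Counted gene by gene against spleen, 28 of the 77 (36.4%) were higher in vein wall than in spleen in all 3 differences, against 17.2% of all genes tested. Lower than spleen in all 3 were 4 (5.19%), against 19.5%. In thrombus 0 genes were higher than spleen in all 4 differences, against 8.07% of all genes, and 11 (14.3%) were lower in all 4, against 10.4%. Those 11 were Mrpl19, Mrpl34, Mrpl36, Mrpl44, Mrpl50, Mrps17, Mrps18b, Mrps24, Mrps26, Mrps30 and Mrps34.

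**Figure D3:**
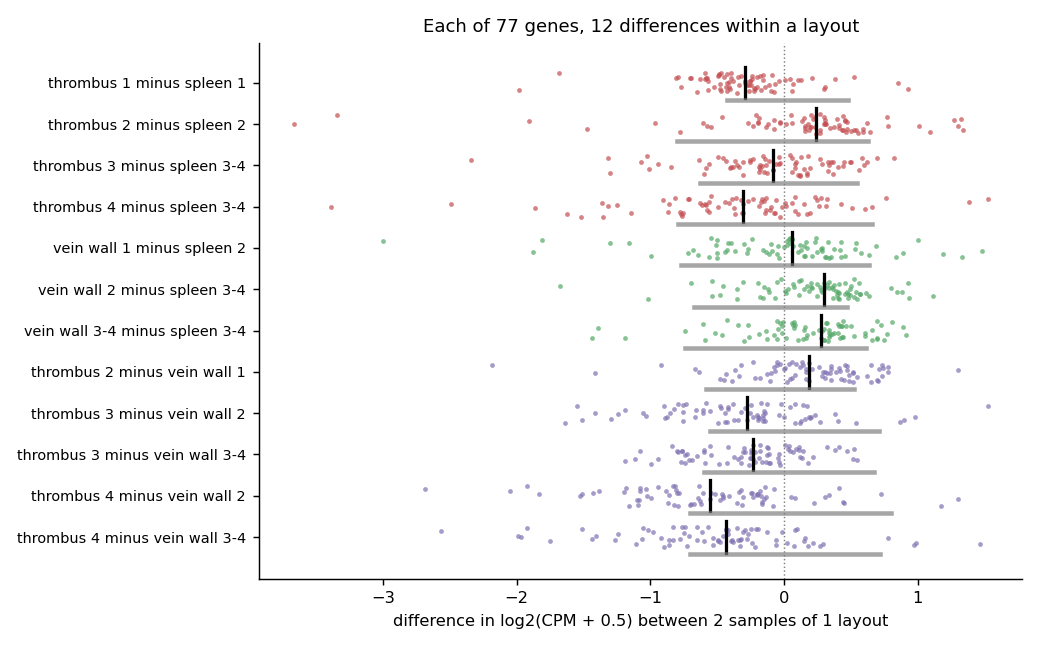
Each row is the difference in log2(CPM + 0.5) between 2 samples of 1 layout, with a point per gene, a black bar at the median of the 77 genes and a grey line under it from the lower to the upper quartile of all genes tested. Thrombus 2 lay to the right of both samples it is set against (0.24 and 0.19), and the other thrombus samples to the left.

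The 4 genes with the smallest p in thrombus against spleen were Mrps30, Mrps24, Mrpl44 and Mrps26. Mrps30 (chromosome 13, 118378381 to 118387252, GRCm38) keeps a small subunit name, although its protein sits in the large subunit. It had 57.2, 14.9 and 67.3 CPM in spleen, 14.1, 1.01, 60.5 and 11.6 CPM in thrombus, and 6.36, 20.7 and 71.0 CPM in the vein wall. Thrombus 1, 2 and 4 lay below every spleen sample, whereas thrombus 3 was at the spleen level, so the groups overlapped. The log2 fold change was -1.97 ± 0.68 in thrombus against spleen (edgeR adjusted p = 0.385), and that of vein wall against spleen was -1.07 ± 0.72 (adjusted p = 0.785). Without thrombus 3 the thrombus value was -2.78 ± 0.62 (edgeR adjusted p = 0.0729). It was -2.01 ± 0.56 without the filter on low counts (edgeR adjusted p = 0.0314), -1.38 ± 0.73 with layout 2 left out (adjusted p = 0.999) and -0.87 in layout 3 alone, the smallest of 20 alternatives.

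Mrps24 (chromosome 11, 5703983 to 5715680), a protein of the small subunit head with a bacterial counterpart at the mRNA entry, had 140.1, 104 and 196 CPM in spleen, 86.3, 7.70, 191 and 88.2 CPM in thrombus, and 12.5, 96.8 and 235 CPM in the vein wall. The 2 lowest values were those of thrombus 2 and vein wall 1, both of layout 2, where spleen 2 had 104 CPM. The groups overlapped. The log2 fold change was -1.71 ± 0.66 in thrombus and -1.54 ± 0.73 in vein wall (edgeR adjusted p = 0.615 and 0.660). The thrombus value was -1.69 ± 0.51 with DESeq2 (adjusted p = 0.0409) and -1.74 ± 0.39 with edgeR without the low-count filter (adjusted p = 0.00344). With layout 2 left out it was -0.56 ± 0.41 (edgeR adjusted p = 0.999).

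Mrps26 (chromosome 2, 130563742 to 130568695), a mitochondria-specific protein of the small subunit, was low in the same pair of samples, with 111, 86.6 and 128 CPM in spleen, 82.2, 22.7, 120.5 and 126 CPM in thrombus, and 24.4, 100.05 and 169 CPM in the vein wall. Its log2 fold change was -0.84 ± 0.38 in thrombus and -0.79 ± 0.43 in vein wall (edgeR adjusted p = 0.687 and 0.709). With layout 2 left out these became -0.20 ± 0.35 and -0.02 ± 0.42. Mrps34, another mitochondria-specific protein of the small subunit, had 52.2, 62.6 and 125 CPM in spleen, 43.6, 22.2, 116 and 68.7 CPM in thrombus, and 31.2, 109.7 and 93.0 CPM in the vein wall, again lowest in thrombus 2 and vein wall 1. Its reads are uncertain, since only 13.3% and 10.9% of them were unique in layouts 1 and 3, against 100% in layout 2, and 77.8% of its exon sequence overlaps the neighbours Mapk8ip3 and Nme3. These libraries do not mark strand.

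Mrpl44 (chromosome 1, 79776018 to 79781445) encodes a large subunit protein with a ribonuclease III fold. It had 31.1, 76.0 and 70.9 CPM in spleen, 26.7, 50.8, 13.6 and 6.34 CPM in thrombus, and 20.3, 43.5 and 26.7 CPM in the vein wall. In layouts 2 and 3 every thrombus and vein wall sample lay below spleen, and with layout 1 the groups overlapped, since spleen 1 was low. The log2 fold change of Mrpl44 was -1.34 ± 0.58 in thrombus and -0.86 ± 0.64 in vein wall (edgeR adjusted p = 0.656 and 0.813). With layout 2 left out these were -1.79 ± 0.68 and -0.41 ± 0.74 (edgeR adjusted p = 0.957 and 1). Over 20 alternatives they ran from -2.79 to -0.85 in thrombus and from -1.31 to -0.045 in vein wall.

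**Figure D4:**
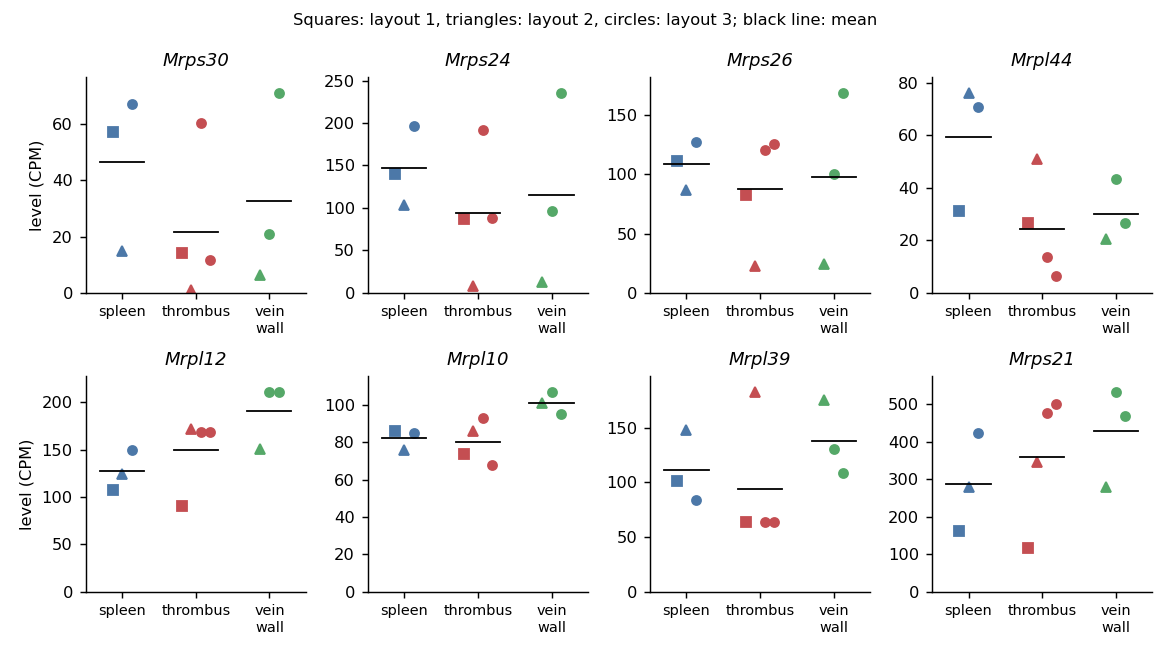
Each panel shows the level of 1 gene in CPM in every sample of spleen, thrombus and vein wall, with the layout as the symbol and the mean as a black line. Mrps24 and Mrps26 reach their lowest levels in the thrombus and vein wall samples of layout 2, 7.70 and 12.5 CPM for Mrps24, and Mrpl10 in thrombus lies below vein wall throughout.

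Promoters were set beside these values for the 68 of the 77 genes with an entry in the RefSeq table of GRCm38.p6, as the 250 bases before the gene start. GABP, an ETS factor, and NRF1 are known regulators of nuclear genes with mitochondrial products. The letters CCGGAAG, the core of an ETS site, were found on either strand in 17 of 68 (25%), against 16.3% of the 9105 tested genes with an entry and 6.91% of all 32851 entries. The letters GCGCA, any 1 base and then GCGC, the core of an NRF1 site, were in 10 of 68 (14.7%), against 9.67% and 3.74%. The letters AAGATGGCG, of a YY1 site, were in 2 of 68 (2.94%), against 1.48% and 0.606%. The E-box CACGTG was in 5 (7.35%), against 9.73% and 6.02%, and the TATA box letters TATAAA in 5 (7.35%), against 7.81% and 12.4%, both less frequent than in the tested genes. These are matches of letters, not sites.

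The promoters of Mrps30 (chr13:118387253-118387502, minus strand), Mrps24 (chr11:5707702-5707951, minus strand) and Mrpl44 (chr1:79775768-79776017, plus strand) are shown because these were the 3 genes with the smallest p in thrombus against spleen. The start of Mrps24 in RefSeq lies inside the extent that the files give. Those of Mrpl17 (chr7:105811088-105811337, minus strand) and Mrpl52 (chr14:54426659-54426908, plus strand), were chosen for their matches, to show both motifs. Each is written 5′ to 3′ on the strand of its gene, with matches to the ETS or NRF1 letters, or their reverse complements, in capitals.
Mrps30: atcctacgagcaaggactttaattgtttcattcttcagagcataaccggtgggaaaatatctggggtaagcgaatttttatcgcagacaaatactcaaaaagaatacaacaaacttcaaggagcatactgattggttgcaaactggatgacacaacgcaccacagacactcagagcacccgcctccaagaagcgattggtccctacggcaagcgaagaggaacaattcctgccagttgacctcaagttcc
Mrps24: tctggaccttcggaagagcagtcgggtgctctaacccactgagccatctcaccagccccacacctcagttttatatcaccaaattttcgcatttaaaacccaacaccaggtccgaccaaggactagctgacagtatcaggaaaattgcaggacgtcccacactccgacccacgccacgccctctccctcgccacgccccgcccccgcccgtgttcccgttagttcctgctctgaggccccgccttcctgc
Mrpl44: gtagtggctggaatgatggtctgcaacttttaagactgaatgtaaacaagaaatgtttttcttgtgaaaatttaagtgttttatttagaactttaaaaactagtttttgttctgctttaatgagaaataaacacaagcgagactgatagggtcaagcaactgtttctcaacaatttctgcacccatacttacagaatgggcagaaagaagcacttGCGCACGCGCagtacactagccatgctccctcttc
Mrpl17: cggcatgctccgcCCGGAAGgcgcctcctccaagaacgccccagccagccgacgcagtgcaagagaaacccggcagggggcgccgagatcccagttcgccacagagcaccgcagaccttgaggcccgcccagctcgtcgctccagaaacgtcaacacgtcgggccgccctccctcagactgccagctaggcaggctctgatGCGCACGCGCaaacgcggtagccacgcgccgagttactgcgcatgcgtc
Mrpl52: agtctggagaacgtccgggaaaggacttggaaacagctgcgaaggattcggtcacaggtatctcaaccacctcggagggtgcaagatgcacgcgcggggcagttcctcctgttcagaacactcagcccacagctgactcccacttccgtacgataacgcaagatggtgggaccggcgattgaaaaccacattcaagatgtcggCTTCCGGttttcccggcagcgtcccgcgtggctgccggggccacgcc
The printed windows of Mrps30 and Mrps24 hold neither of these motifs, Mrpl44 and Mrpl17 hold the NRF1 letters, and Mrpl17 and Mrpl52 the ETS letters.

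By role, the stalk that recruits translation factors to the large subunit has 3 proteins here, Mrpl10, Mrpl11 and Mrpl12. None was called in any comparison. Mrpl12, whose bacterial counterpart binds the elongation factors, had 108, 125 and 149 CPM in spleen, 90.2, 172, 168 and 168 CPM in thrombus, and 151, 211 and 211 CPM in the vein wall. Every vein wall sample lay above every spleen sample. The means of Mrpl12 in spleen, thrombus and vein wall were 127 ± 20.9, 149.6 ± 39.6 and 191 ± 34.6 CPM (± SD over samples here). Its log2 fold change in vein wall against spleen was 0.34 ± 0.29 (± SE, edgeR adjusted p = 0.844). Mrpl10, its anchor on the stalk, had 86.1, 75.6 and 84.7 CPM in spleen, 73.7, 86.1, 92.7 and 68.0 CPM in thrombus, and 101, 107 and 95.1 CPM in the vein wall. Vein wall lay above both other tissues in every sample, and the log2 fold change of thrombus against vein wall was -0.33 ± 0.31 (edgeR adjusted p = 0.998). Mrpl11 overlapped in all comparisons, with log2 fold changes from -0.08 to 0.07.

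The 6 tunnel exit genes, where nascent chains leave towards the inner membrane, had a median of -0.23 in thrombus and 0.08 in vein wall against spleen, with 0 called. Mrpl45, the contact of the ribosome with the inner membrane, had log2 fold changes of -0.21 ± 0.29 and -0.12 ± 0.32. Mrpl23 showed the widest gap between layouts of the 77 genes. It had 56.5, 256 and 261 CPM in spleen, 17.2, 354, 422 and 349.7 CPM in thrombus, and 278, 481 and 457 CPM in the vein wall, where the 2 layout 1 samples were far below all others. In layout 1, 5.15% of its reads were unique, against 100% in layout 2 and 100% in layout 3, and its annotated exon length was 2164 bases against 1562 and 966. Its log2 fold change with the layout term was 0.14 ± 0.40 in vein wall and -0.15 ± 0.35 in thrombus.

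Of the 4 genes around the peptidyl transferase centre, Mrpl2, Mrpl3, Mrpl4 and Mrpl16, none was called. Mrpl4 was among those with the smallest p in vein wall against spleen, with 118, 78.6 and 111 CPM in spleen, 136, 199, 80.6 and 129.7 CPM in thrombus, and 146, 122.8 and 175 CPM in the vein wall. Each vein wall sample was above each spleen sample, and the log2 fold change was 0.61 ± 0.36 (edgeR adjusted p = 0.742). Mrpl2 and Mrpl3 had log2 fold changes of 0.31 ± 0.37 and -0.19 ± 0.43 in thrombus, within 1 standard error of 0. The 6 genes of the central protuberance, which joins the large to the small subunit, had medians of -0.03, 0.15 and -0.10 in the 3 comparisons, and the log2 fold changes of their member Mrpl38 were 0.04 ± 0.36 and 0.03 ± 0.40 against spleen.

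The large subunit also held the gene with the smallest p in thrombus against vein wall, Mrpl39 (chromosome 16, 84717576 to 84735742), a protein with a threonyl-tRNA synthetase-like domain. It had 101, 148 and 84.0 CPM in spleen, 64.2, 183, 63.5 and 63.8 CPM in thrombus, and 176, 130.5 and 109 CPM in the vein wall. Thrombus 1, 3 and 4 were at 63.5 to 64.2 CPM, below every vein wall sample, and thrombus 2 was above all of them. The log2 fold change of Mrpl39 was -0.64 ± 0.30 (edgeR adjusted p = 0.998). Mrpl34, a small protein conserved from bacteria, had 55.8, 121 and 81.0 CPM in spleen, 32.5, 111, 52.0 and 21.9 CPM in thrombus, and 99.5, 92.4 and 84.3 CPM in the vein wall, with log2 fold changes of -0.78 ± 0.40 against vein wall and -0.73 ± 0.38 against spleen (edgeR adjusted p = 0.998 and 0.793). Thrombus 2 again stood above the other thrombus samples. For both genes the samples of the same layout, spleen 2 and vein wall 1, were likewise the highest of their tissues. Mrpl19 lay below vein wall in every thrombus sample, with 47.5, 62.7 and 89.5 CPM in spleen, 40.02, 61.2, 43.7 and 52.7 CPM in thrombus, and 76.4, 80.6 and 72.5 CPM in the vein wall and a log2 fold change of -0.51 ± 0.36.

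In the small subunit, the 8 genes of the head had a median of -0.05 in thrombus and 0.21 in vein wall against spleen. Mrps33 had 147, 298 and 254 CPM in spleen, 131, 422, 324 and 315 CPM in thrombus, and 333, 485 and 401 CPM in the vein wall, so that every vein wall sample was above every spleen sample, with a log2 fold change of 0.48 ± 0.27 (edgeR adjusted p = 0.726). Mrps31, also of the head, was 1 of the 2 Mrps genes above 0 in thrombus against vein wall, at 0.63 ± 0.46. Mrps7, which binds the rRNA of the head, had -0.11 ± 0.33 in thrombus and 0.16 ± 0.38 in vein wall against spleen.

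The 10 genes of the body and platform all had log2 fold changes below 0 in thrombus against vein wall, with a median of -0.31, and 0 were called. Mrps12, the protein of the decoding centre, had 88.6, 149 and 128 CPM in spleen, 65.8, 172, 192 and 96.2 CPM in thrombus, and 111, 168 and 208 CPM in the vein wall and log2 fold changes of -0.04 ± 0.31 and 0.09 ± 0.36 against spleen. Its groups overlapped. Mrps22, a mitochondria-specific protein, ranged from 13.1 to 75.6 CPM within vein wall alone. Mrps2 had 26.2, 23.5 and 30.6 CPM in spleen, 28.2, 19.96, 12.0 and 12.0 CPM in thrombus, and 54.1, 35.2 and 13.2 CPM in the vein wall and a log2 fold change of -1.05 ± 0.56 in thrombus against vein wall (edgeR adjusted p = 0.998), with thrombus 3 and 4 and vein wall 3-4 near 12.0 CPM.

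The 3 Mrps18 paralogs occupy different places: Mrps18c and Mrps18b are in the small subunit and Mrps18a is in the large one. Mrps18c had 108, 206 and 231 CPM in spleen, 89.3, 274, 241 and 351 CPM in thrombus, and 229, 401 and 287 CPM in the vein wall, with log2 fold changes of 0.17 ± 0.26 and 0.30 ± 0.29 against spleen. Mrps18b was below 0 in both comparisons, at -0.50 ± 0.29 and -0.34 ± 0.32, as was Mrps18a at -0.19 ± 0.28 and -0.16 ± 0.31. None of the 3 was called. Unique reads made up 31.4% to 36.9% of those of Mrps18a and 30.0% to 41.98% of those of Mrps18b, which makes both uncertain. Mrps36, whose product is now placed in the 2-oxoglutarate dehydrogenase complex in spite of its name, had 80.7, 123.4 and 120.1 CPM in spleen, 58.9, 177, 109 and 82.0 CPM in thrombus, and 156, 184 and 195 CPM in the vein wall and a log2 fold change of -0.64 ± 0.30 in thrombus against vein wall (edgeR adjusted p = 0.998). Its unique reads made up 33.1% to 43.7% of the total.

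Genes that work with the mitochondrial ribosome were counted in the same fit. The 5 tested mitoribosomal proteins with other names, such as Dap3, had medians of -0.16, 0.21 and -0.31 in thrombus against spleen, vein wall against spleen and thrombus against vein wall, with 0 called. The 12 mitochondrial translation factors had medians of -0.50, -0.37 and -0.25, with 0 called and 3 lower in thrombus than spleen at an unadjusted p under 0.05. The smallest p was that of Guf1, a GTPase of the elongation cycle, with 64.4, 30.1 and 44.7 CPM in spleen, 15.6, 4.67, 34.7 and 7.36 CPM in thrombus, and 0.955, 14.5 and 59.8 CPM in the vein wall. Its log2 fold change in thrombus was -2.18 ± 0.79 (edgeR adjusted p = 0.476), and its groups overlapped through thrombus 3. The 22 tested assembly and rRNA modification genes had medians of -0.21, -0.02 and -0.40, and the 20 mitochondrial aminoacyl-tRNA synthetases -0.18, -0.16 and -0.05, with 0 called in either list. Of the 14 tested genes of mitochondrial transcription and RNA handling and the 9 tested transcriptional regulators, 0 were called as well, and their medians were 0.04 and -0.11 in thrombus and -0.10 and 0.13 in vein wall against spleen.

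The 76 nuclear genes of the oxidative phosphorylation complexes, whose partners the mitochondrial ribosome makes, had medians of 0.01, 0.21 and -0.20, beside -0.10, 0.11 and -0.23 for the 77 mitoribosomal genes. Within layouts their medians were -0.32, 0.37, 0.03 and -0.15 for thrombus 1 to 4 against spleen, so that thrombus 1 and 2 differed in sign in this list too. The 76 cytosolic ribosomal protein genes gave 0.28 and 0.36 against spleen, with 73 and 75 above 0 and 0 called. Their medians within layouts were -0.22 for thrombus 1 and 0.47, 0.63 and 0.53 for thrombus 2 to 4, where the mitoribosomal genes of thrombus 3 and 4 had -0.08 and -0.31. Whether the lists differed was not tested.

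The 13 mRNAs that the mitochondrial ribosome translates took 2.68, 3.75 and 2.47% of all gene reads in spleen, 2.43, 1.56, 2.44 and 2.48% in thrombus and 1.38, 2.35 and 2.91% in vein wall. The 2 lowest shares were in thrombus 2 and vein wall 1 and the highest in spleen 2, all of layout 2, and the groups overlapped. Thrombus 2, with the highest summed level of mitoribosomal protein transcripts in thrombus, thus had the lowest share of mitochondrial mRNA in that tissue.

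Part of the spread within a tissue went with the layout of the file, with layout 1 low in both tissues that have it. In spleen 1, 66 of the 77 genes were lower than in spleen 3-4, with a median difference in log2(CPM + 0.5) of -0.53, against -0.04 over all genes tested. In spleen 2, 36 were lower and the median was 0.04. In thrombus 1, 62 were lower than in thrombus 3, with a median of -0.80, against 0.09 over all genes. Layout 2 did not go 1 way against layout 3. In thrombus 2, 17 were lower than in thrombus 3 (median 0.37), and in vein wall 1, 56 were lower than in vein wall 2 (median -0.14). Annotated exon length differed between layouts by a median of 1.49-fold and by up to 15.7-fold, in Mrpl33, and 15 of the 77 genes agreed within 10%. Reads were largely unique, with a median over genes of 98.2%, 100% and 99.8% in layouts 1, 2 and 3. Under 50% were unique for 10, 4 and 8 genes, among them Mrpl53 with 0% in layout 1. Layout and tissue are partly confounded, since layout 1 has no vein wall sample. Whether the layouts mark different animals, runs or only different annotation was not tested.

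**Figure D5:**
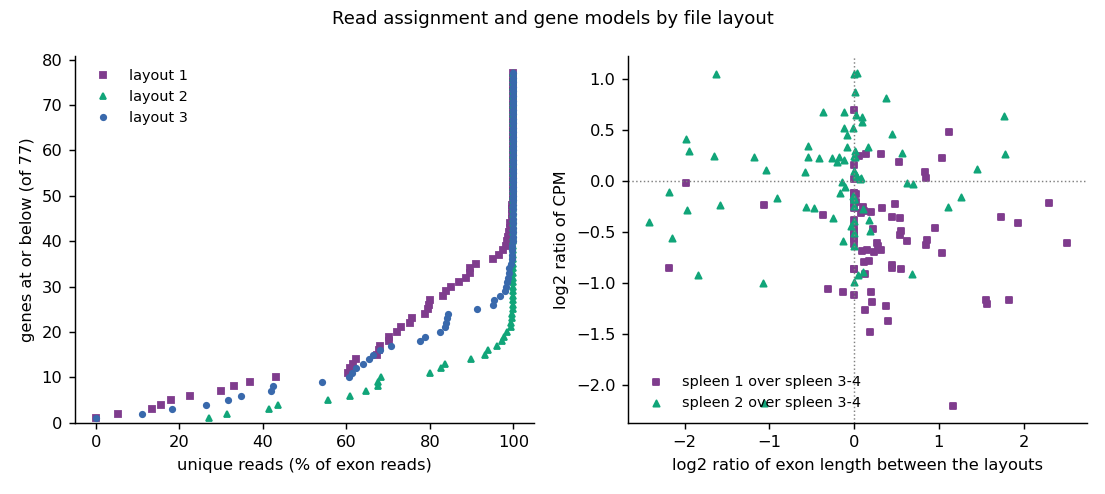
Left, the number of genes (of 77) at or below each share of unique reads, by layout. Right, the log2 ratio of CPM between spleen samples against the log2 ratio of annotated exon length between their layouts, a point per gene; squares, spleen 1 over spleen 3-4, lie mostly below 0 (66 of 77).

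The 77 genes lie on 17 chromosomes. In the GENCODE M21 annotation of GRCm38, 33 of them (42.9%) have a protein-coding gene on the opposite strand whose start lies head to head within 1000 bases, against 17.1% of the 11608 tested protein-coding genes. The partners include other genes of the mitochondrion, such as Ndufs6 beside Mrpl36 and Ndufb5 beside Mrpl47, both subunits of complex I, and Sars2 beside Mrps12, the mitochondrial seryl-tRNA synthetase. Mrps11 and Mrpl46 are such a pair within the set, with starts that overlap by 412 bases. Without strand in the libraries, reads from overlapping first exons cannot be assigned, and exons of 32 of the 77 genes overlap another gene.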

How the data were processed

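RNA of sorted cells was made into cDNA with SMART-Seq v4 and into libraries with Nextera XT, per the labels' protocols; these kits do not record strand, and without molecular identifiers PCR copies count as reads. The authors deposited a table per library, per the file headers with raw counts of total exon reads per gene, whose values were used as deposited, unique reads being a subset. The build, per the submitters' processing notes, was GRCm38. Neither aligner nor counter is named in the sources used here. RPKM columns in the same tables were left aside.

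Genes were joined between layouts 1 and 3 by Ensembl gene ID. Layout 2 was added by symbol where chromosome and strand matched and positions overlapped (20725 genes over the 3 layouts). Libraries of a tissue with a mean chi-square per gene under 10 were summed. edgeR 4.0.16 in R 4.3.3 (TMM, filterByExpr, robust quasi-likelihood fit, residual degrees of freedom 5) tested 11618 genes over 10 samples with tissue and layout as terms; calls needed an adjusted p (Benjamini-Hochberg, over all genes tested) under 0.05. The layout term lets each gene differ by a constant between gene models. CPM uses the TMM library size. Fold changes are given with their standard errors (SE), also after a bare ± sign. Within-layout differences used a pseudocount of 0.5 CPM. DESeq2 1.42.0 served as an alternative. The fit was tested on simulated data in which 100 genes were raised 2-fold and 100 genes 4-fold in thrombus and vein wall. These genes were drawn at random from all genes tested. Of the 2-fold changes it called 6% in thrombus and 4% in vein wall against spleen, and of the 4-fold changes 49% and 40%. False calls numbered 3 and 5. Genes were named by rule: the 4 smallest p per comparison, the highest and lowest levels per kilobase, 1 to 3 genes per role, and the 2 with the largest difference between layouts; others named in counts or for promoter motifs were chosen after their values were seen. Cell type markers, related gene lists and the genes themselves were chosen with earlier results of these data known. Over 8479 genes, same-numbered libraries of different tissues had correlations of deviations from the tissue mean of -0.14 to 0.49. Not all were above 0.1, and the main fit did not pair libraries by experiment number. Layout was not removed from these deviations. Thrombus 2 and vein wall 1, of 1 layout but different numbers, had 0.45. Spleen 1 and vein wall 1, of 1 number but different layouts, had -0.14. The check therefore cannot show whether same-numbered libraries are paired. Alternatives were other normalization, filter, read class, gene models and terms, each sample left out in turn, and layouts left out; the last was added after seeing the data.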

Additional observations from a re-analysis of the deposited data

Results flagged for a closer look

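In thrombus, the group of 4 samples, the level of Mrpl12 was far lower in thrombus 1 (90.2 CPM) than in the other 3 samples (168 to 172 CPM), and the gap to its neighbour made up 0.957 of the range. The level of Mrpl39 was far higher in thrombus 2 (183 CPM) than in the others (63.5 to 64.2 CPM), with a gap of 0.994 of the range. Both exceed the 95% critical value of Dixon's test for 4 samples. Thrombus 1 was the only thrombus sample of layout 1, and thrombus 2 the only one of layout 2. Mrpl12 was also lowest in spleen 1 among the spleen samples. Mrpl39 was also highest in the layout 2 samples of the other tissues, spleen 2 and vein wall 1. The part of the layout in these gaps was not tested. Of the 30 genes named by rule these 2 exceeded it, and of all 77 genes 6 did. Chance gives about 1 in 20.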

How the results depend on the processing

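Over the alternatives run, 0 of the 77 genes was called in any comparison, apart from Mrps24 in thrombus against spleen with DESeq2 (1 gene) and Mrps24 and Mrps30 without the low-count filter (2 genes). Counts over all genes moved more: in thrombus against spleen (53) to 17 without the layout term, 111 with the 12 libraries kept separate, 272 with DESeq2, 210 without the filter, 22 among genes with exon lengths within 10% and 31 with layout 2 left out. In vein wall against spleen (48) they moved to 13, 210, 262, 161, 21 and 21 under the same settings. In thrombus against vein wall (0) they were 29 with DESeq2, 4 without the filter and 1 in layout 3 alone or with layout 1 left out. The gene set with lengths within 10% held 2939 genes, hence fewer to call; the cause of the other shifts was not tested. The median of the 77 genes in vein wall against spleen (0.11) was 0.30 without the layout term and 0.27 in layout 3 alone, where spleen is 1 sample.

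Leaving out each sample in turn gave 33 to 51 genes called in thrombus against spleen (33 without spleen 2), 20 to 64 in vein wall against spleen (20 without vein wall 1, 28 without spleen 2) and 0 to 1 in thrombus against vein wall. The medians of the 77 genes ranged from -0.23 to -0.01, from 0.068 to 0.32 and from -0.38 to -0.15. With the 12 libraries kept separate and the experiment number as a replicate block in place of the layout term (11419 genes tested), so that 2 choices changed together, 0 of the 77 genes was called and the medians were -0.06, 0.30 and -0.39; 52, 65 and 0 of all genes were called. The main fit also called 0 of the 77, so there was no call to lose. At an unadjusted edgeR p under 0.05, 13 of the 77 were then higher and 1 lower in vein wall against spleen (1630 of all genes). The main fit had 0 (908 of all genes). In thrombus against vein wall 8 were lower (884 of all genes), where the main fit had 2 (480 of all genes).

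Of 1815 values of named genes under 21 alternatives, 1627 kept the sign of the value reported and 188 did not. The smallest count of any of the 77 genes was 18 reads, for Mrps30 in thrombus 2.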
